A study of Arabidopsis thaliana with 20 samples.

Results

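WOL (AT2G01830), a cytokinin (CK) receptor of Arabidopsis also known as CRE1 and AHK4, was followed through 20 one-colour Agilent arrays of root RNA. The gene lies on chromosome 2 between AT2G01820 and AT2G01840 in the TAIR10.1 annotation, where RefSeq lists 6 transcripts for it. The probes on the arrays carry no gene names, and that of WOL was therefore identified through the study's supplementary list of genes changed in the mutants. The differences of the 7 mutants from WT listed there for AT2G01830 matched those in the authors' table of log2 values at 1 spot (distance 3.02e-05, next spot 0.061, tolerance 0.0005). WOL is thus 1 of 2072 genes paired with a probe in this way, and its probe, A_84_P784848, occupies 1 spot. A gene enters that list only if the study called it changed in a mutant on these same arrays. The study also grouped the listed genes by their calls in the single, double, and triple mutants. It placed WOL in the group it describes as redundantly regulated by ARR1, ARR10, and ARR12. The comparisons among the mutants and WT below, and the pattern of their calls, are thus not independent of how the gene was named and grouped. The comparison of CK-treated with mock-treated WT does not share those arrays. Which of the 6 transcripts the probe detects was not examined here.

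In textbook accounts, CK binds membrane histidine kinases such as WOL, the signal passes as a phosphate group through histidine phosphotransfer proteins to the nucleus, and there it activates type-B response regulators, the transcription factors of the pathway. Type-B regulators such as ARR1, ARR10, and ARR12 induce CK-responsive genes, among them the type-A response regulators, which dampen the signal, and cytokinin oxidases, which degrade the hormone. WOL is known from the wooden leg mutant, in which the vascular bundle of the root has too few cell files and forms only protoxylem, and its transcript is known to be enriched in the vascular tissue of the root.

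The plants were seedlings of the Col-0 ecotype, 10 days old, grown on vertical agar plates in continuous light, and the roots were cut off near the hypocotyl. The untreated groups were WT, the single mutants arr1, arr10, and arr12, 3 double mutants (arr1/10, arr10/12, arr1/12), and the triple mutant arr1/10/12, with 1 allele of each gene (arr1-3, arr10-5, and arr12-1). These are loss-of-function alleles, and the methods give a T-DNA collection as the source of the single mutants and arr1/12. By the same methods, arr1/10, arr10/12, and arr1/10/12 were provided by another researcher. In comparisons of these with the single mutants or arr1/12, genotype and seed source cannot be told apart. The methods do not give the source of the WT seed, so the same may hold for comparisons with WT. In a second experiment, WT was treated for 1 h with mock or with 5 μM N6-benzyladenine, a synthetic CK, and these groups are called mock and CK. Each of the 10 groups had 2 arrays, described as biological replicates without further detail, so p-values measure the spread between these arrays. In whole roots, fewer cells that express a gene and less RNA per cell cannot be told apart.

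The median log2 signal per array ranged from 8.21 to 9.61 before normalization, with 8.65 and 8.21 on the arr1/10/12 arrays, and no spot was saturated. Replicate 1 of all untreated groups shared slide 1 and replicate 2 shared slide 4, while the mock arrays lay on slides 2 and 5 and the CK arrays on slides 3 and 6, so treatment and slide cannot be told apart. Replicate 1 of all 10 groups was scanned on day 1 and replicate 2 on day 2. The targeted genes were low in the mutants that lack them with 1 exception. ARR10 and ARR12 were called lower in each of the 4 mutants labelled as lacking them, with log2 differences from WT of −5.35 or below for ARR10 and −6.24 or below for ARR12, the signal of ARR12 on both arr1/10/12 arrays being not well above background. ARR1 was called lower in 3 of the 4 mutants that should lack it, at −3.79 (arr1/10), −4.12 (arr1/12), and −4.34 (arr1/10/12). On the arrays labelled arr1, however, ARR1 was at 12.27 and 12.52 on the log2 scale, against 11.99 and 12.01 in WT (difference 0.40, adjusted p = 0.21 by limma, with Benjamini-Hochberg adjustment over all probes tested and a call at an adjusted p under 0.05, as throughout). These 2 arrays are therefore called the arrays labelled arr1, and results that rest on them are also given without them, except the comparisons of those arrays themselves.

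WOL was well above background on all 20 arrays and was never marked as an outlier. Its median pixel intensity was 19.7 to 192 times the local background, which was 20 to 30. After background subtraction its intensity was 1395 and 1201 in WT, 1580 and 1400 in mock, 4290 and 3644 in CK, and 520 and 438 in arr1/10/12. The 14 untreated arrays other than arr1/10/12 spanned 1201 to 2376. Both arr1/10/12 arrays were thus below the lowest of these 14 arrays, and both CK arrays were above every other array, before any normalization between arrays.

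After quantile normalization, the log2 signal of WOL was 10.71 and 10.60 on the WT arrays. The arrays labelled arr1 gave 10.67 and 10.76, those of arr10 gave 10.70 and 10.95, and those of arr12 gave 10.50 and 11.00. Among the double mutants, arr1/10 was at 10.76 and 10.92, arr1/12 at 10.64 and 10.80, and arr10/12 at 10.91 and 11.04. All 12 arrays of single and double mutants thus lay between 10.50 and 11.04, and each of them except replicate 1 of arr12 was above the lower WT array. In arr1/10/12 the signal was 9.54 and 9.71, with a gap of 0.79 to the lowest of the other 14 untreated arrays. In mock it was 10.37 and 10.64, and in CK 11.86 and 11.95, with a gap of 0.81 to the highest of the other 18 arrays.

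**Figure D1:**
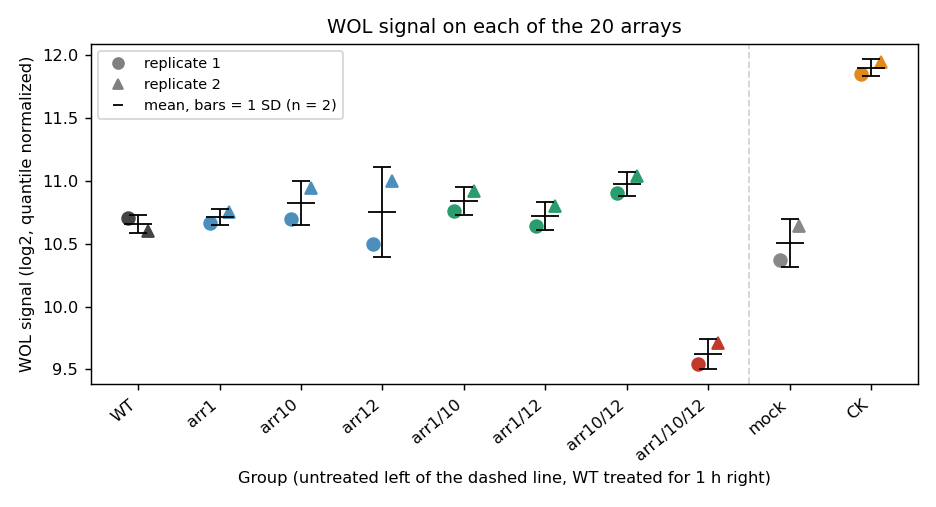
Log2 signal of WOL (y axis, quantile normalized) on each array of the 10 groups (x axis), with circles for replicate 1, triangles for replicate 2, and black marks for the mean ± SD (n = 2). Single and double mutants lie at 10.50 to 11.04, arr1/10/12 at 9.54 and 9.71, and CK at 11.86 and 11.95.

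In order of their means, the groups were arr1/10/12 (9.62 ± 0.12, SD, n = 2), mock (10.50 ± 0.19), WT (10.65 ± 0.07), the arrays labelled arr1 (10.71 ± 0.06), arr1/12 (10.72 ± 0.11), arr12 (10.75 ± 0.36), arr10 (10.82 ± 0.17), arr1/10 (10.84 ± 0.11), arr10/12 (10.97 ± 0.10), and CK (11.90 ± 0.07). Only the first step, of 0.88 from arr1/10/12 to mock, and the last, of 0.93 from arr10/12 to CK, separated neighbours whose arrays did not overlap. The steps between the 8 groups in the middle were 0.01 to 0.15, and the arrays of neighbouring groups overlapped. Replicate 2 was higher than replicate 1 in 9 of the 10 groups, the exception being WT, and the largest difference between replicates was 0.50 in arr12.

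To examine the response of the receptor gene to its own hormone, CK was compared with mock. WOL rose 2.64-fold (log2 difference 1.40, 95% confidence interval 1.06 to 1.74, adjusted p = 0.000151). Among the arrays of scan day 1, CK was 1.49 above mock, and among those of scan day 2 it was 1.31 above. Of the 34034 probes tested, 3.54% were called higher in CK, and 292 of those 1206 probes had a larger rise than WOL, the median rise of called probes being 0.91. The rise exceeded that of 98.8% of all probes tested. Higher and lower calls numbered 1206 and 1032, or 1006 and 1332 under 75th percentile scaling, where WOL rose by 1.38. The methods' t-test, taken alone on these 4 arrays, gave WOL an unadjusted p of 0.0102 and an adjusted p of 0.207. The study combined that test with a median-ratio test and permutation distributions, a procedure that was not run here, and the adjustment was added here. The mock treatment itself gave no call for WOL, which was −0.15 in mock relative to untreated WT (95% confidence interval −0.49 to 0.19, adjusted p = 0.59), whereas 8.59% of all probes were called lower in that comparison.

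To examine how far the receptor gene depends on the 3 type-B regulators, each mutant was compared with WT. No single or double mutant differed from WT in WOL by the test. The differences were 0.06 for the arrays labelled arr1, 0.17 for arr10, and 0.10 for arr12, with adjusted p of 0.96, 0.84, and 0.93. That of arr12 was −0.16 without its replicate 2. They were 0.18 for arr1/10, 0.06 for arr1/12, and 0.32 for arr10/12, with adjusted p of 0.54, 0.87, and 0.34. The 95% confidence intervals of these 6 differences reached down to −0.29 (arrays labelled arr1), −0.17 (arr10), −0.25 (arr12), −0.16 (arr1/10), −0.28 (arr1/12), and −0.02 (arr10/12), so that a fall as large as that in arr1/10/12 lay outside each of them. Their upper bounds ran from 0.40 to 0.66, and rises up to that size were not excluded by these arrays. For arr10/12 the difference was 0.20 within slide 1 and 0.44 within slide 4, and with a replicate block its interval was 0.08 to 0.56 (adjusted p = 0.13 by limma). Calls of lower signal were rare here in general, at 0.0529% of all probes on the arrays labelled arr1, 0.0264% for arr10, and 0.0676% for arr12. Among the double mutants the share was 0.441% for arr1/10, 1.37% for arr1/12, and 0.0911% for arr10/12.

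In arr1/10/12, WOL fell to 0.490 of its WT level (log2 difference −1.03, 95% confidence interval −1.37 to −0.69, adjusted p = 0.000131). The difference was −1.17 within slide 1 and −0.89 within slide 4. This comparison called 31.1% of all probes lower, and the fall of WOL lay at percentile 13.6 of all differences, with 4396 called probes falling further and a median fall of −0.87 among called probes. The median of all probes tested was −0.08. A call as lower in this comparison was therefore common. By the methods' t-test, again taken alone, the unadjusted p of WOL was 0.00922 and the adjusted p 0.092. The 2 arr1/10/12 arrays also lay below the other 14 untreated arrays by 1.16 on average (two-sided exact permutation test, p = 0.0167, the smallest that 120 assignments allow), and without the arrays labelled arr1 by 1.17 (exact p = 0.022, the smallest that 91 allow). These assignments exchange arrays freely between slides 1 and 4. Arrays were also exchanged only within a slide, in a test chosen after seeing the data. The exact p was then 0.0312 over 64 assignments and 0.0408 over 49 without the arrays labelled arr1, again the smallest possible. All of these tests treat the 2 arrays of a genotype as separate units. WOL was named and grouped through the study's calls on these same arrays, so reaching the smallest p adds no independent evidence of its fall.

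Relative to the double mutants, which each retain 1 of the 3 regulators, WOL was lower in arr1/10/12 in all 3 comparisons. The log2 difference was −1.22 from arr1/10, which retains ARR12 (adjusted p = 3.68e-05), −1.10 from arr1/12, which retains ARR10 (adjusted p = 8.83e-05), and −1.35 from arr10/12, which retains ARR1 (adjusted p = 1.46e-05). These comparisons share the arr1/10/12 arrays. They called 31.9%, 31.3%, and 32.5% of all probes lower. The mean of the 3 double mutants was 0.19 above WT (95% confidence interval −0.09 to 0.47, adjusted p = 0.38) and that of the single mutants 0.11 above WT (−0.17 to 0.39, adjusted p = 0.79), or 0.13 without the arrays labelled arr1.

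Whether losing a regulator last differed from losing it first was tested directly. The difference made by losing a gene last, arr1/10/12 minus the double mutant that retains the gene, was set against that made by losing it first, the single mutant minus WT. For ARR1 the difference was −1.41 (95% confidence interval −1.89 to −0.92, adjusted p = 0.000352), and it cannot be given without the arrays labelled arr1, on which it rests. For ARR10 it was −1.26 (−1.75 to −0.78, adjusted p = 0.000734) and for ARR12 −1.31 (−1.79 to −0.83, adjusted p = 0.000558). arr1/10/12 also lay 1.35 below the sum of the 3 single mutant differences (95% confidence interval −2.03 to −0.67, adjusted p = 0.0069), and 1.30 below the sum of arr10 and arr12 without the arrays labelled arr1. Such calls were again frequent, at 24.2%, 24.6%, and 25.2% of all probes for the 3 regulators and 17.9% for the sum. These 4 values share arrays and are not separate pieces of evidence, nor are they independent of how WOL came to be named.

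**Figure D2:**
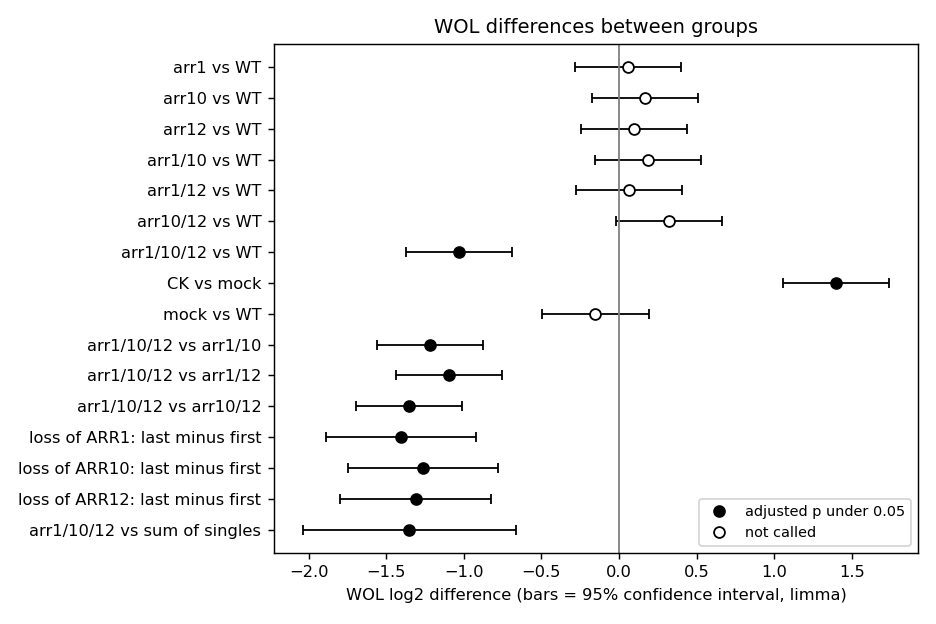
Log2 differences of WOL between groups (x axis) for 16 comparisons (y axis), with 95% confidence intervals from limma and filled points for an adjusted p under 0.05. Relative to WT, the 6 single and double mutants lie at 0.06 to 0.32 and mock at −0.15, none of them called. The triple mutant arr1/10/12 is below WT and below each double mutant by 1.03 to 1.35, and CK is above mock by 1.40.

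WOL thus had a call as higher in CK and a call as lower in arr1/10/12. It had no call in any single or double mutant, or in mock relative to WT. The study had grouped WOL by its calls in the mutants on these arrays, so the mutant part of this pattern is not independent evidence. P-values were adjusted within each comparison, so a difference of a given size can be called in 1 comparison and not in another. Of the probes tested, 697 were called both higher in CK and lower in arr1/10/12, which is 57.8% of those higher in CK and 6.58% of those lower in arr1/10/12. Of all probes, 31.1% were lower in arr1/10/12 and 3.54% higher in CK. Among those 697 probes, 541 had no call in the 6 single and double mutants, and 290, including that of WOL, had none in mock relative to WT either. Having no call was the usual outcome for any probe in these comparisons. Of 34034 probes, each single mutant had 6 to 20 called higher and 9 to 23 lower. Each double mutant had 73 to 485 called higher and 31 to 467 lower, and mock had 2443 and 2925. The counts of 697, 541, and 290 depended on the setting, in repeats chosen after seeing the data. With a replicate block they were 1099, 787, and 422. In the fit without the arrays labelled arr1 they were 617, 503, and 262, with no call asked of the 5 other mutants. Leaving out an array gave 365 to 834, 258 to 647, and 156 to 361, the first count being 365 without mock replicate 1, 389 without CK replicate 1, and 398 without CK replicate 2. WOL was among the probes of all 3 counts in every setting in which they were made. They were not made by the methods' t-test, which after adjustment called WOL in neither CK nor arr1/10/12.

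The other genes of the pathway that could be paired with a probe were set beside WOL. They come from the same list of genes changed in the mutants, and were chosen with earlier results known. Their direction in the mutants is therefore not independent evidence. For the same reason, the shares of all probes called in the mutants are not a like baseline for them. The other CK receptors, the phosphotransfer proteins, and further type-A regulators were not analysed here, since no probe was paired with them. All 8 type-A regulators that could be paired (ARR3, ARR4, ARR5, ARR6, ARR7, ARR15, ARR16, and ARR17) rose in CK, where 3.54% of all probes did, by 1.81 to 5.87 on the log2 scale with a median of 2.82, beside a median of 0.03 over all probes. All 8 also fell in arr1/10/12, where 31.1% of all probes did, with a median of −3.46, or −3.44 with the bounds below. The signals of ARR15, ARR16, and ARR17 were not well above background on either arr1/10/12 array, so their WT levels were at least 24.7-fold, 17.0-fold, and 5.52-fold higher, each bound being the WT mean against the lowest signal well above background on those arrays or the probe's own, if higher. WOL rose and fell by less than each of these 8 genes.

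ARR5, a type-A regulator often used as a reporter of CK signaling, was at 11.64 and 11.83 in WT, 8.61 and 8.79 in arr1/10/12, 11.39 and 11.53 in mock, and 14.36 and 14.58 in CK. It fell by 3.03 in arr1/10/12 (adjusted p = 1.12e-09) and rose by 3.01 in CK (adjusted p = 4.82e-08). It was also called lower in 2 of the double mutants, where WOL was not, at −1.09 in arr1/10 and −0.86 in arr1/12 (adjusted p = 0.000639 and 0.00295). Across these 8 type-A regulators, 3 were called lower in arr1/10 (5 with a replicate block), 5 in arr1/12 (7 with the block), and none in arr10/12, where 0.441%, 1.37%, and 0.0911% of all probes were. ARR7 was the only 1 of the 8 called lower on the arrays labelled arr1, at −0.83 (adjusted p = 0.034), and with a replicate block 2 were called. In mock relative to WT, ARR3, ARR6, ARR15, and ARR16 were called lower, at −0.90 to −1.83, beside 8.59% of all probes, while WOL was not called.

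CKX3 and CKX5, the oxidases that break down CK, were at −2.84 and −2.77 in arr1/10/12 relative to WT (adjusted p = 2.61e-08 and 1.76e-07). They rose by 3.42 and 2.73 in CK (adjusted p = 2.39e-07 and 4.1e-06). CKX3 was also called lower in arr1/12 (−1.15, adjusted p = 0.00368), whereas CKX5, like WOL, had no call in any single or double mutant. SHY2, a repressor of auxin responses known to act downstream of CK in the root meristem, fell by 3.75 in arr1/10/12 and rose by 1.82 in CK (adjusted p = 2.73e-09 and 1.92e-05). ASL9, a CK-induced gene of the LBD family, was at −3.62 and 2.14 in the same comparisons (adjusted p = 4.44e-09 and 6.41e-06). SHY2 was also called lower in arr1/12 (−0.79, adjusted p = 0.0226). ASL9 was called lower at −1.04 on the arrays labelled arr1 (adjusted p = 0.0363) and at −1.41 and −1.33 in arr1/10 and arr1/12, with adjusted p of 0.00126 and 0.00182, whereas it was at 0.07 in arr10 and 0.06 in arr12 with no call. None of the 3 deleted regulators themselves was called in CK, where ARR12 was at 0.95 (adjusted p = 0.055, or 0.0426 and thus called with a replicate block), ARR10 at 0.35, and ARR1 at −0.18.

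**Figure D3:**
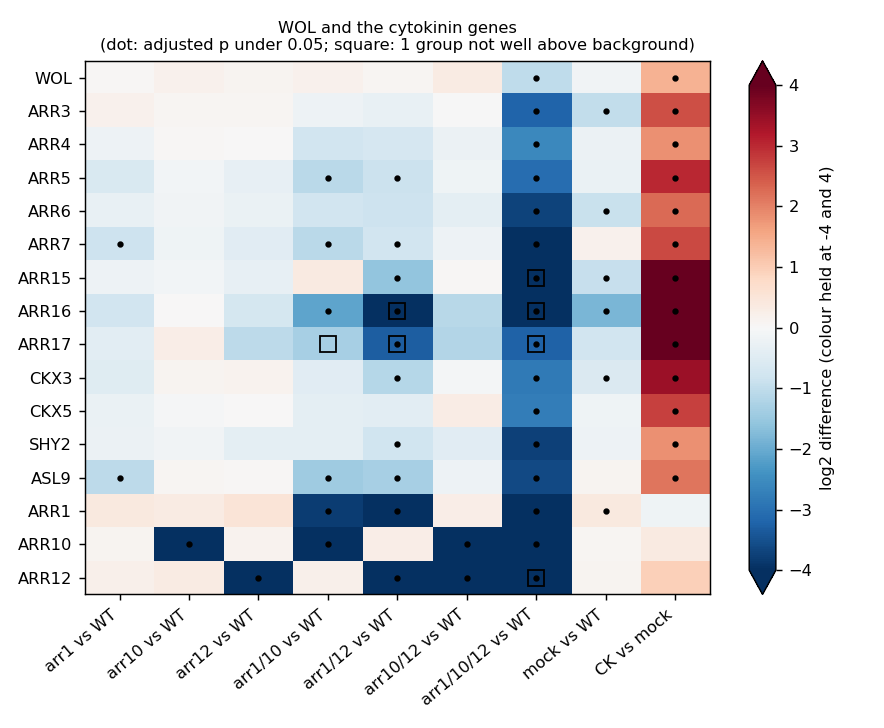
Log2 differences (colour, held at −4 and 4) of WOL and 15 other cytokinin genes (rows) in 9 comparisons (columns), with dots for an adjusted p under 0.05 and squares where 1 of the groups compared was not well above background on either array. WOL shares its calls in arr1/10/12 and CK with the type-A regulators and oxidases at smaller differences, −1.03 and 1.40, and has no call elsewhere.

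Since WOL is known from vascular tissue, 10 genes of that tissue were followed beside it, again all from the list of changed genes. They were chosen with earlier results of these data known. Their falls in the mutants are thus not independent evidence, and the shares of all probes called there are not a like baseline. All 10 of 10 fell in arr1/10/12, where 31.1% of all probes did, with differences of −1.04 to −2.79 and a median of −1.78. Their summed signal was 48894 to 50402 in WT, 41112 to 51071 in the 6 single and double mutants, and 10550 to 12292 in arr1/10/12. These sums are of signals not on the log2 scale, so bright genes weigh most. In WT, LAX3 was the brightest of the 10 (mean log2 signal 14.49) and APL the dimmest (6.68). Among the single and double mutants, 3 of 10 were called lower in arr1/12, beside 1.37% of all probes, with IRX9 at −0.65, LBD4 at −0.37, and NAC101 at −0.93, and 2 of 10 in the fit without the arrays labelled arr1. With a replicate block 3 of 10 were also called lower in arr1/10, and WOL had no call in either mutant. At least 9 of the 10 were well above background on every array. WAT1, a transporter needed for secondary walls, was at −2.79 and LAX3, an auxin influx carrier, at −2.39 (adjusted p = 9.97e-09 and 7.86e-10). The vascular genes thus moved in the same direction as WOL in the triple mutant, and their part in its fall was not tested. In CK, where their summed signal was 53002 to 53439 against 42159 to 43522 in mock, 3 of 10 rose, beside 3.54% of all probes, LBD4 by 1.38, NAC101 by 0.88, and LAX3 by 0.37. Of the 10 genes, 2 were called lower in mock relative to WT, beside 8.59% of all probes, LBD4 at −0.91 and LAX3 at −0.32 (adjusted p = 1.7e-05 and 0.0242). The mean of LAX3 was thus 14.55 in CK, 14.18 in mock, and 14.49 in WT.

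Root hair genes were followed as markers of another cell type of the root. These too come from the list of genes changed in the mutants, and were chosen with earlier results known. For their calls in the mutants, the shares of all probes are again not a like baseline. In arr1/10/12, 3 of 4 fell, beside 31.1% of all probes, with differences of −1.77 for EXPA7, −1.88 for EXPA18, and −3.01 for MRH6, while MRH1 was at −0.40 (adjusted p = 0.33). In mock relative to WT, the same 3 genes were called lower, at −1.22, −1.73, and −2.11 (4 of 4 with a replicate block), beside 8.59% of all probes, and their summed signal with MRH1 was 6621 to 10229 against 20779 to 27320. WOL was not called in that comparison. None of the 4 was called in CK, where WOL rose.

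To find the genes whose pattern was most like that of WOL, its 10 group means were correlated with those of 33706 other probes, as a description over 10 points of which 8 come from the untreated and 2 from the treated experiment. Pearson's r was at least 0.9 for 353 probes and at least 0.95 for 50, and was −0.9 or below for 286, with a median of 0.14. Among the 1989 paired genes compared, the 5 highest were CKX5 (r = 0.976, rank 11 of all probes), ARR15 (0.968, rank 22, with its signal in arr1/10/12 not well above background), UBC16 (0.957, rank 38), CKX3 (0.954, rank 42), and ARR3 (0.947, rank 58). Over the 20 arrays, r was 0.951, 0.952, 0.918, 0.924, and 0.925 for the same genes, and 4 of these 5 genes remained among the 5 highest. Over the 9 group means without the arrays labelled arr1, r was 0.955 to 0.976 and the same 5 genes were the highest, at ranks 14 to 55 of all probes, with 449 probes at 0.9 or above, 71 at 0.95 or above, and 342 at −0.9 or below. The most similar probes of all were thus not paired with a gene.

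UBC16 (AT1G75440), a ubiquitin-conjugating enzyme, is described by array as well. Its signal was 12.82 and 12.83 in WT, 11.44 and 11.48 in arr1/10/12, 12.76 and 12.66 in mock, and 13.93 and 13.94 in CK, and its 12 single and double mutant arrays lay between 12.59 and 12.91. Its 6 double mutant arrays, at 12.59 to 12.76, were all below both WT arrays, and in arr10/12 it was at −0.21 relative to WT, where WOL was at 0.32. It had the smallest distance to WOL in centred group means of all paired genes (0.516, rank 8 of all probes), and also without the arrays labelled arr1 (0.501, rank 10). On chromosome 1, UBC16 and CKX5 (AT1G75450) lie on either side of a single annotated locus, AT1G09553. CKX5 itself was at 8.86 and 8.97 in WT, 5.78 and 6.52 in arr1/10/12, 8.58 and 8.93 in mock, and 11.47 and 11.49 in CK.

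**Figure D4:**
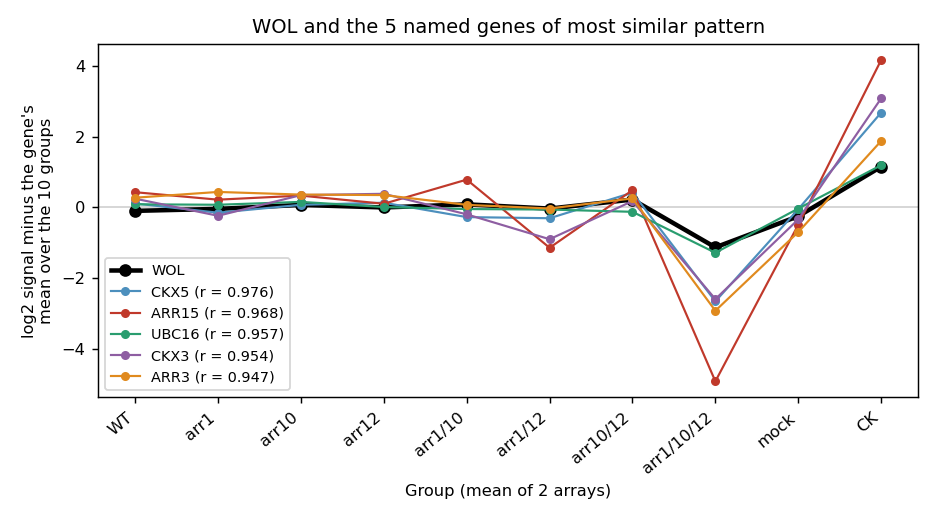
Group means of the log2 signal (y axis, minus the gene's mean over the 10 groups) for WOL and the 5 paired genes of highest Pearson's r with it, by group (x axis, mean of 2 arrays). All 6 lines are lowest in arr1/10/12 and highest in CK, and UBC16 lies closest to WOL.

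The 3 paired genes of lowest r were AT1G61060 (r = −0.917), AT4G36268 (−0.915), and AT3G52440 (−0.898). Their group means were highest in arr1/10/12, at 8.08, 11.30, and 8.88, and lowest in CK, at 5.90, 8.89, and 7.27, against 6.84, 10.54, and 7.99 in WT. Over the 20 arrays their r was −0.668, −0.761, and −0.852, and 1 of the 3 remained among the 3 lowest. Without the arrays labelled arr1 it was −0.920, −0.921, and −0.898, and 2 of the 3 remained among the 3 lowest.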

How the data were processed

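Each of the 20 root RNA samples was measured on its own Agilent array with the dye Cy3. The authors deposited Agilent Feature Extraction (version 10.7.1.1) output, in which each spot has a background-subtracted intensity, not normalized between arrays. A table of log2 values was deposited as well. It held the quantile normalized median pixel intensities on the log2 scale, with no background removed, and treated the 16 untreated and the 4 treated arrays as separate sets (checked on the files, largest difference 5e-09). The list of changed genes served only to pair genes with probes, and its fold changes are not reported. No sequence of the probe or the gene was used here.

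Background-subtracted intensities were log2 transformed and quantile normalized over 61657 non-control spots. Spots marked as outliers (1 to 386 on an array) were removed before averaging over the spots of each probe. A probe was tested if both arrays of some group were well above background, which held for 34034 of 43603 probes. Limma 3.58.1 in R 4.3.3 was used (lmFit and eBayes, 1 coefficient per group, 20 arrays, 10 residual and 2.11 prior degrees of freedom), and a call is an adjusted p under 0.05 (Benjamini-Hochberg) in that contrast, of which there were 19. Exact permutation tests used scipy 1.17.1 in Python 3.11.15. Precision is limited by having only 2 arrays in each group. On simulated data for arr1/10/12 versus WT, 200 of 34034 probes were changed. At log2 changes of 0.5, 1, and 2, limma recovered 0, 139, and 186 of them, with 0, 6, and 8 false calls. The real comparison called 7904 probes higher and 10599 lower. Its adjusted threshold was therefore looser, and the simulated recoveries do not carry over to it.

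When each group's deviation of replicate 1 from the mean was correlated across probes, all 28 pairs of untreated groups gave 0.17 to 0.52. Their same-numbered arrays share a slide, so these numbers pair the untreated arrays. Mock with the 8 untreated groups gave 0.10 to 0.30, and CK with the 9 other groups −0.11 to −0.0059. Mock and CK with each other gave −0.04, so their numbers are not taken as pairs, although arrays of 1 number share a scan day in all groups and the replicate block is therefore also a block of scan day.

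The genes named are WOL, the CK, vascular, and root hair genes that could be paired, and the 5 highest and 3 lowest paired genes by r. These members and lists, and the tests, were chosen with earlier results of these data known. UBC16 was described by array, and the smallest distance given, because the rule named it. Alternatives were other normalization, background correction, filters, samples, weights, a replicate block, the methods' t-test, and leaving out each array. The methods' t-test was run alone, without the permutation distributions and the median-ratio test that the study joined to it. The fit without both arrays labelled arr1, the repeats of the counts of probes sharing the calls of WOL, the likeness over 9 groups, and the permutation within slides were added after seeing the data. The normexp background correction used the median pixel intensity in place of the mean.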

Additional observations from a re-analysis of the deposited data

Results flagged for a closer look

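In WOL, the difference made by losing a regulator last differed from that made by losing the same regulator first, by the interaction test in limma. The value was −1.41 for ARR1, which rests on the arrays labelled arr1, −1.26 for ARR10, and −1.31 for ARR12, on the log2 scale, with both arr1/10/12 arrays below all other untreated arrays. The triple mutant also lay below the sum of the single mutant differences (−1.35). All 4 values use the same 2 arr1/10/12 arrays, and 17.9% to 25.2% of all probes gave such a call. They are also not independent of how WOL came to be named and grouped, through the study's calls in the mutants on these arrays.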

How the results depend on the processing

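Over 19 contrasts of WOL and 591 values under other settings, 584 kept their direction and their side of the threshold. Leaving out an array moved the difference of arr12 from WT between −0.16 (without arr12 replicate 2) and 0.35, and that of arr1/12 between −0.015 (without arr1/12 replicate 2) and 0.14, none being called. Among the uncalled contrasts, the difference from WT ranged from 0.0042 to 0.11 for the arrays labelled arr1, 0.05 to 0.29 for arr10, 0.11 (without arr1/10 replicate 2) to 0.26 for arr1/10, −0.29 to −0.02 for mock, and 0.02 to 0.19 for the mean of single mutants. The methods' t-test, taken alone and with a Benjamini-Hochberg adjustment added here, called none of its 5 otherwise called contrasts of WOL, with the differences themselves as before. These were −1.03 for arr1/10/12 versus WT (adjusted p = 0.092), 1.40 for CK versus mock (0.207), and −1.22, −1.10, and −1.35 for arr1/10/12 versus arr1/10, arr1/12, and arr10/12 (0.077, 0.086, and 0.067). After adjustment that test called only 1 probe in arr1/10/12 versus WT and 1 in CK versus mock. In those 2 comparisons the lost calls were thus not particular to WOL. Over the limma settings, the adjusted p ranged from 1.1e-05 to 0.016 for arr1/10/12 versus WT and from 1.23e-05 to 0.0416 for CK versus mock, and the differences ranged over all settings from −1.12 to −0.95 and from 1.27 to 1.53. Counts of called probes moved more. For arr1/10/12 versus WT, 18503 became 9827 with only the arrays compared, and 10860 by the methods' t-test or 1 after adjustment, and leaving out an array gave 15849 to 18990. For CK versus mock, 2238 became 3887 with a replicate block, 3792 with array weights, 1124 within the treated experiment, 614 with only the arrays compared, and 5629 by the methods' t-test or 1 after adjustment. Leaving out an array gave 1174 (without mock replicate 1) to 3132, with 1175 and 1335 without CK replicate 2 and 1. Under 75th percentile scaling the split of CK calls was 1006 higher and 1332 lower, against 1206 and 1032. The replicate block changed no call of WOL. The signal of WOL was 19.7 to 192 times the local background, and each group had 2 arrays.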
